A study of Homo sapiens with 8 samples.

Results

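Translation initiation and elongation factor mRNAs were examined in iCLIP libraries of dyskerin and GAR1 from U2OS nuclei. The genes were the GENCODE protein-coding genes whose symbol begins with EIF or EEF followed by a digit, without EIF4A2, and they numbered 70 of 20046 protein-coding genes. At least 1 counted crosslink site was found in 58 of the 70 genes in some library, and 12 had none. U2OS is a human osteosarcoma cell line. iCLIP crosslinks proteins to RNA in living cells with ultraviolet light, pulls down 1 protein, and reads the position at which reverse transcription stopped, so that each cDNA marks a crosslinked nucleotide. There were 4 groups of 2 libraries each, all of nuclear RNA from U2OS cells crosslinked in the same way: a mouse antibody to dyskerin, a rabbit antibody to GAR1, mouse IgG run beside the dyskerin set, and mouse IgG run beside the GAR1 set. The IgG of the GAR1 set was therefore of another species than the GAR1 antibody, and the IgG libraries show what beads and washing left behind.

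Dyskerin is the pseudouridine synthase of the H/ACA ribonucleoprotein, and GAR1 is a core protein of the same particle. H/ACA snoRNAs and scaRNAs guide the particle to its targets, and many lie in introns of genes of the translation machinery. Initiation factors bring the small ribosomal subunit, the initiator tRNA and the mRNA cap together, and elongation factors deliver aminoacyl-tRNA and move the ribosome along the codons. Because several of these genes carry a snoRNA in an intron, sites within 100 nt of any snoRNA or scaRNA on either strand were set aside, and the remaining strand-matched cDNAs were summed by 5′UTR, CDS, 3′UTR and intron.

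The libraries held 1693951 and 1875459 peak cDNAs for dyskerin, 585454 and 1976518 for GAR1, 146514 and 8183 for the IgG of the dyskerin set, and 295255 and 10701 for the IgG of the GAR1 set. The second IgG library of each set was thus far shallower than the others, and it decided several values below. Protein-coding genes took 65.6 and 64.0% of peak cDNAs with dyskerin, 1.69 and 2.51% with GAR1, 55.0 and 13.7% with the IgG of the dyskerin set, and 1.67 and 8.76% with the IgG of the GAR1 set. Of 8 markers of mesenchymal osteosarcoma cells, 6 had sites in each dyskerin library, and none of 8 markers of other lineages had a site in any library.

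Strong crosslink positions show what was measured. The 7 below were among the exonic positions of highest summed level called in both dyskerin libraries, with at most 2 a gene and 1 chromosome, which held 3 of the 8 highest, left out, and they are given 5′ to 3′ on the mRNA strand of hg38 with the crosslinked nucleotide in capitals, and all 7 lay in coding sequence.
EIF3A exon 16, chr10:119050565-119050585, minus strand: gataacatacTatagagaaaa
EIF5B exon 10, chr2:99376352-99376372, plus strand: ggaaacaaagTtcatatagaa
EIF5B exon 8, chr2:99369419-99369439, plus strand: ctgtagaagtTatggaacaag
EIF4G2 exon 4, chr11:10806009-10806029, minus strand: cccagggcaaAacgctcagaa
EIF3B exon 17, chr7:2379195-2379215, plus strand: aggagctctaTatggagcaga
EIF3B exon 12, chr7:2372755-2372775, plus strand: tttctaccacGtcaaaaacaa
EIF3J exon 4, chr15:44551431-44551451, plus strand: aggtaaaaatTtcagaaaaga

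The position in EIF3A exon 16 had 19 and 43 cDNAs in the dyskerin libraries, 0 and 0 in GAR1, and 3 and 0 in the IgG of the dyskerin set. The position in EIF5B exon 10 had 26 and 27 with dyskerin, 0 and 1 with GAR1, and 9 and 0 with the IgG of the dyskerin set. Of the 7 positions, 5 were also called in the first IgG library of the dyskerin set, the exceptions being EIF4G2 and the exon 12 position of EIF3B, and none in the IgG of the GAR1 set. The crosslinked base was T, that is U in the RNA, at 5 of them, and purines made up between 10 and 16 of the 21 bases in each window.

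The translation factor mRNAs took 0.566 and 0.768% of peak cDNAs in the dyskerin libraries, 0.0161 and 0.0248% in GAR1, 0.564 and 0.0978% in the IgG of the dyskerin set, and 0.00576 and 0.0841% in the IgG of the GAR1 set. The first IgG library of the dyskerin set lay at the level of the first dyskerin library, with 95% Wilson intervals of 0.527 to 0.603% for that IgG library and 0.555 to 0.578% for dyskerin. The second IgG library of that set rested on 8 cDNAs, for an interval of 0.0496 to 0.193%. These intervals cover counting error only. As a share of protein-coding cDNAs alone, the same genes took 0.863 and 1.20% with dyskerin, 0.951 and 0.989% with GAR1, 1.02 and 0.713% with the IgG of the dyskerin set, and 0.345 and 0.961% with the IgG of the GAR1 set, so that on this scale dyskerin and GAR1 overlapped. The distance between dyskerin and GAR1 on the first scale thus moved with the share of all protein-coding RNA in the libraries.

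In both dyskerin libraries 47 of the 70 genes had a site, or 67.1%, against 35.9% of all protein-coding genes. In both GAR1 libraries it was 4 genes, or 5.71%, against 3.40% of all protein-coding genes. The IgG of the dyskerin set had 2 such genes, or 2.86%, against 1.09% of all protein-coding genes. The IgG of the GAR1 set had 1, or 1.43%, against 0.309%. The second IgG library of each set had a site in only 3 of the 70 genes. The first IgG library of the dyskerin set alone had one in 28 of the 70 genes, or 40%, against 16.8% of all protein-coding genes. Single positions recurred in part: 2612 sites were called in both dyskerin libraries, which is 47.8% of the 5462 sites of the first and 37.0% of the 7060 sites of the second. In GAR1, 18 sites were shared, 30% of the 60 sites of the first library and 5.79% of the 311 of the second. Of the 605 sites in the first IgG library of the dyskerin set, 518 were also called in a dyskerin library, or 85.6%.

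A few genes held most of the signal. EIF3A, EEF1D, EIF5B and EIF3B together took 59.2 and 62.6% of the cDNAs of the 70 genes with dyskerin, and 76.2% in the first IgG library of the dyskerin set. With GAR1 these 4 took 84.0 and 77.35%, mostly from EEF1D, which held 79 of 94 and 294 of 490 cDNAs.

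EIF3A encodes the largest subunit of eIF3, the scaffold that joins the small ribosomal subunit to the mRNA. It had 1057 and 1751 cDNAs per 1000000 peak cDNAs (CPM) with dyskerin, 0 and 0 with GAR1, 1775 and 489 with the IgG of the dyskerin set, and 0 and 0 with the IgG of the GAR1 set. The dyskerin and IgG libraries of that set overlapped, and the log2 fold change of dyskerin over IgG was 0.28 ± 2.16 (SE; edgeR's quasi-likelihood test, adjusted p = 0.953). GAR1 had no called site among the counted sites of EIF3A. With 3 counts over both GAR1 libraries taken as the bound, EIF3A was at least 1214-fold higher with dyskerin in called sites. The peak lists leave out cDNAs outside called sites, so this bound does not cover them.

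EEF1D, a subunit of the exchange complex that recharges eEF1A with GTP, was the only one of the 12 genes of highest level with cDNAs in all 4 libraries of the GAR1 set. It had 1132 and 1213 CPM with dyskerin, 135 and 149 with GAR1, 1208 and 0 with the IgG of the dyskerin set, and 44.03 and 467 with the IgG of the GAR1 set. GAR1 lay between its IgG libraries, and edgeR put the difference from IgG at -0.66 ± 2.30 on the log2 scale (SE), with an adjusted p of 1.00. The IgG values rest on 13 and 5 cDNAs. With GAR1 the cDNAs of EEF1D were largely intronic, 39 of 79 and 213 of 294, whereas with dyskerin 1423 of 1918 and 1798 of 2275 were in the CDS.

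EIF5B, the GTPase that joins the ribosomal subunits, had 666 and 1348 CPM with dyskerin, 0 and 32.9 with GAR1, and 1031 and 0 with the IgG of the dyskerin set. EIF3B, a core eIF3 subunit, had 497 and 501 CPM with dyskerin, 0 and 10.1 with GAR1, and 280 and 0 with that IgG. In both genes the dyskerin and GAR1 libraries did not overlap, and the first IgG library of the dyskerin set was within the range of dyskerin for EIF5B and below it for EIF3B.

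**Figure D1:**
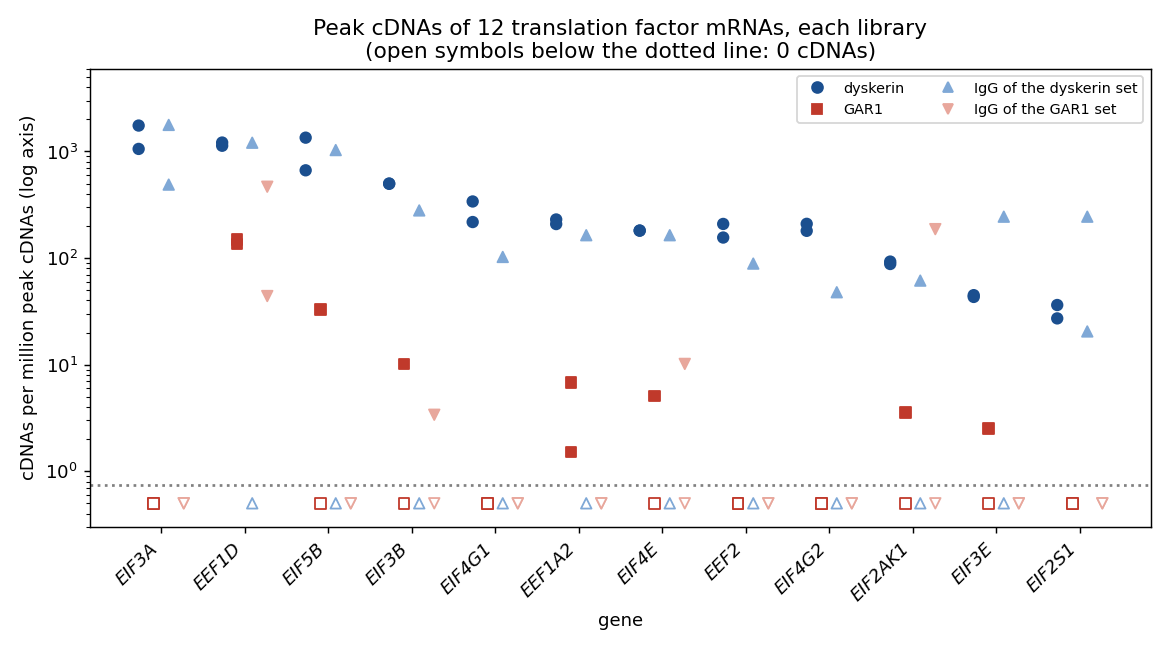
Level of the 12 translation factor mRNAs of highest mean level in each library, in cDNAs per 1000000 peak cDNAs on a log axis, 1 symbol per library and open symbols for 0 cDNAs. EIF3A reaches 1057 and 1751 with dyskerin and 1775 and 489 with the IgG of the dyskerin set, and 11 of the 12 genes have at least 1 empty library among GAR1 or its IgG.

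The other leading genes were cap-binding, tRNA-delivering and translocating factors. EIF4G1, the scaffold of the cap-binding complex, had 218 and 340 CPM with dyskerin, 0 and 0 with GAR1, and 102 and 0 with the IgG of the dyskerin set. EIF4G2, a relative that lacks the site for eIF4E, had 180 and 210 with dyskerin, 0 and 0 with GAR1, and 47.8 and 0 with that IgG. EIF4E, the cap-binding protein itself, had 181 and 181 with dyskerin, 0 and 5.06 with GAR1, 164 and 0 with the IgG of the dyskerin set, and 10.2 and 0 with the IgG of the GAR1 set. Most dyskerin cDNAs of EIF4E were intronic, 279 of 307 and 308 of 339, as were all 24 in the first IgG library of the dyskerin set. The same held for some other genes, such as EIF2B3 with 69 of 79 and 41 of 51 intronic with dyskerin.

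EEF2, the factor that moves the ribosome by 1 codon, had 156 and 209 CPM with dyskerin, 0 and 0 with GAR1, 88.7 and 0 with the IgG of the dyskerin set, and 0 and 0 with the IgG of the GAR1 set. Among called sites, dyskerin was at least 157-fold higher than GAR1 in EEF2. For dyskerin over its IgG, edgeR gave 1.30 ± 1.25 on the log2 scale (SE), with an adjusted p of 0.489. The tested genes most like EEF2 over the 8 libraries were SPDL1, PHLDB2, DIAPH1, SARNP and PPP4R2, with Pearson correlations of log2(CPM + 1) of 0.999975 or more, and the libraries at 0 set most of this likeness.

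EEF1A2, the form of eEF1A known from muscle and neurons, had 230 and 208 CPM with dyskerin, 6.83 and 1.52 with GAR1, and 164 and 0 with the IgG of the dyskerin set. EEF1A1, the widespread form, named here after its values were seen, had 132 and 333 cDNAs with dyskerin, fewer than the 390 and 391 of EEF1A2. EEF1A1 has 49 annotated pseudogenes, which held 16 and 15 cDNAs in the dyskerin libraries, and reads that fit several copies could be split or lost, so the order of both genes is uncertain.

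By role, the 14 eIF3 genes took 35.8 and 35.9% of the cDNAs of the 70 genes with dyskerin, and 13 of the 14 had sites in both dyskerin libraries. The 6 genes listed under the eEF1 complex, EEF1E1 among them, took 25.6 and 21.1%. The 11 listed under cap binding and unwinding, EIF4A3 among them, took 13.8 and 13.1%. The 6 genes listed under scanning and start codon choice took 13.0 and 19.1%. Of their 738 and 1466 CPM with dyskerin, 666 and 1348 came from EIF5B, the factor that joins the subunits. The 10 genes listed under eIF2, which carries the initiator tRNA, and its exchange factor eIF2B took 4.31 and 4.39%, with 8 of 10 in both libraries. The 10 include EIF2A, with 66 and 145 cDNAs, whose product is not a subunit of either complex. EIF2S1 had 27.2 and 36.3 CPM with dyskerin and 20.5 and 244 with the IgG of the dyskerin set, the last from 2 cDNAs. EIF2B3 had 46.6 and 27.2 CPM with dyskerin and 20.5 and 0 with that IgG. The 15 kinases, inhibitors and modifiers took 4.56 and 3.70%, led by EIF2AK1, the haem-regulated eIF2 kinase, with 92.7 and 88.0 CPM, and EIF2AK4, the amino acid sensing kinase, with 82.1 and 52.8 CPM. The 4 genes of eIF5A and eIF6 took only 0.188 and 0.118%. Of these, EIF6 had 15 and 1 cDNAs and EIF5A 0 and 16 in the dyskerin libraries. EIF3CL, a near-identical copy of EIF3C, had no cDNA in any library, whereas EIF3C had 98 and 99 with dyskerin, and reads of either copy could have been assigned to the other or left out.

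The coding sequence held most cDNAs in dyskerin. Of the cDNAs in the 70 genes, 83.8% ± 3.8 lay in the CDS with dyskerin (SD, n = 2), 28.6% ± 4.7 with GAR1, 70.3% ± 28.7 with the IgG of the dyskerin set, and 53.6% ± 34.2 with the IgG of the GAR1 set. The first IgG library of the dyskerin set alone was at 90.6%, from 826 cDNAs. The IgG libraries therefore spanned the dyskerin values. The GAR1 split rested largely on EEF1D, which held 39 of the 47 and 213 of the 300 intronic GAR1 cDNAs of the 70 genes. Over all protein-coding genes the CDS share was 49.1% ± 8.5 with dyskerin, 19.1% ± 1.4 with GAR1, 34.3% ± 2.5 with the IgG of the dyskerin set and 29.1% ± 10.4 with the IgG of the GAR1 set.

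Per kilobase of region, dyskerin gave 42.0 and 60.8 CPM per kb of CDS in the 70 genes, 8.30 and 10.3 in 5′UTR, 0.649 and 0.448 in 3′UTR and 0.280 and 0.253 in introns. The order CDS, 5′UTR, 3′UTR, intron was the same in both libraries. All protein-coding genes gave 7.92 and 9.88 CPM per kb of CDS, 1.11 and 1.41 in 5′UTR, 0.315 and 0.280 in 3′UTR and 0.271 and 0.203 in introns. The intron densities of the 70 genes and of all genes were therefore close with dyskerin, and the difference lay in the exons. Expression of the genes was not taken into account. In the 70 genes the first IgG library of the dyskerin set gave 46.75 CPM per kb of CDS, within the dyskerin range. Over all protein-coding genes that IgG library gave 5.57 per kb of CDS, so the higher CDS density of the 70 genes was found in it too. In the 70 genes it gave 5.20 in 5′UTR, 0.147 in 3′UTR and 0.135 in introns, the same order of regions. The second IgG library of that set gave 4.48 per kb of CDS, from 4 cDNAs.

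**Figure D2:**
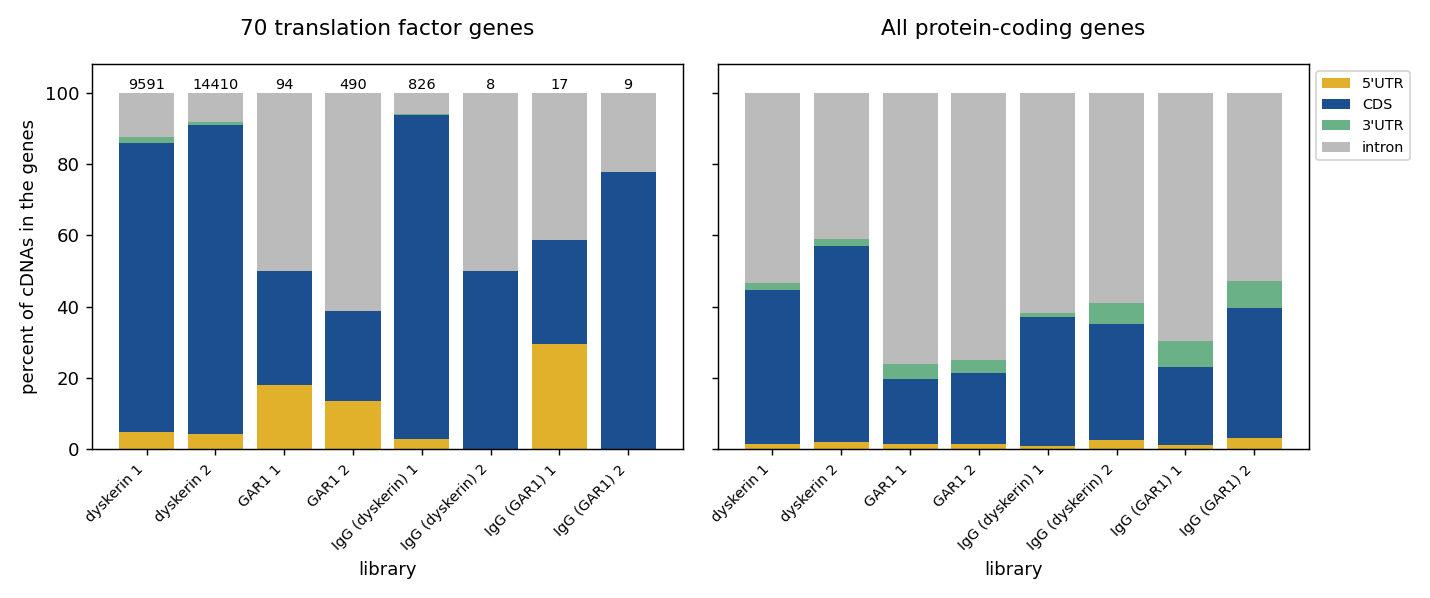
Share of cDNAs by region in each library, for the 70 translation factor genes (left, with their cDNAs above each bar) and for all protein-coding genes (right), in percent. In the 70 genes the CDS holds 83.8% ± 3.8 with dyskerin and 28.6% ± 4.7 with GAR1, where EEF1D alone holds 79 of the 94 and 294 of the 490 cDNAs.

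Counted per kilobase of its own CDS, EEF1D was the highest with dyskerin, at 420 ± 39 CPM per kb (SD, n = 2), followed by EIF3A at 330 ± 117, EIF5B at 259 ± 127, EIF3B at 192 ± 2.3, EEF1A2 at 137 ± 12 and EIF3J at 117 ± 26. The replicates of EIF3A overlapped with those of EEF1D above it and of EIF5B below it, those of EIF3B lay within the range of EIF5B, and those of EEF1A2 and EIF3J overlapped, whereas EEF1D lay wholly above EIF5B. Among all protein-coding genes these 6 ranked 14, 26, 40, 66, 117 and 146 by the same density. The first IgG library of the dyskerin set was at 501, 415, 274, 115, 106 and 126 CPM per kb in the same 6 genes. It lay above both dyskerin libraries in EEF1D and EIF3A, within their range in EIF5B and EIF3J, and below it in EIF3B and EEF1A2. The second IgG library of that set was at 118 in EIF3A and at 0 in the others.

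Within a coding sequence the cDNAs were not spread evenly. In EIF3A, 93.4 and 91.6% of the CDS cDNAs with dyskerin fell in deciles 5 to 9 of the 4146-nt CDS, counted from the start codon, and 99.2% of 252 in the first IgG library of the dyskerin set. EIF5B was placed the other way round, with 96.5 and 96.7% with dyskerin in deciles 1 to 5 of its 3660-nt CDS, 94.0% of 50 in the second GAR1 library, and 100% of 147 in that IgG library. In EEF2 decile 4 alone held 53.0 and 55.6% with dyskerin, and all 13 cDNAs in that IgG library. In EIF4G1 decile 6 held 37.1 and 44.98% with dyskerin, and 93.3% of 15 in that IgG library.

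These stretches were picked after the profiles were seen and are descriptions. Over the 21 genes with at least 50 CDS cDNAs in both dyskerin libraries, the Pearson correlation between the libraries over the 10 deciles ran between 0.53 and 0.99, with a median of 0.94. The points of such a correlation share a gene and an assay, and peaks had been called gene by gene.

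**Figure D3:**
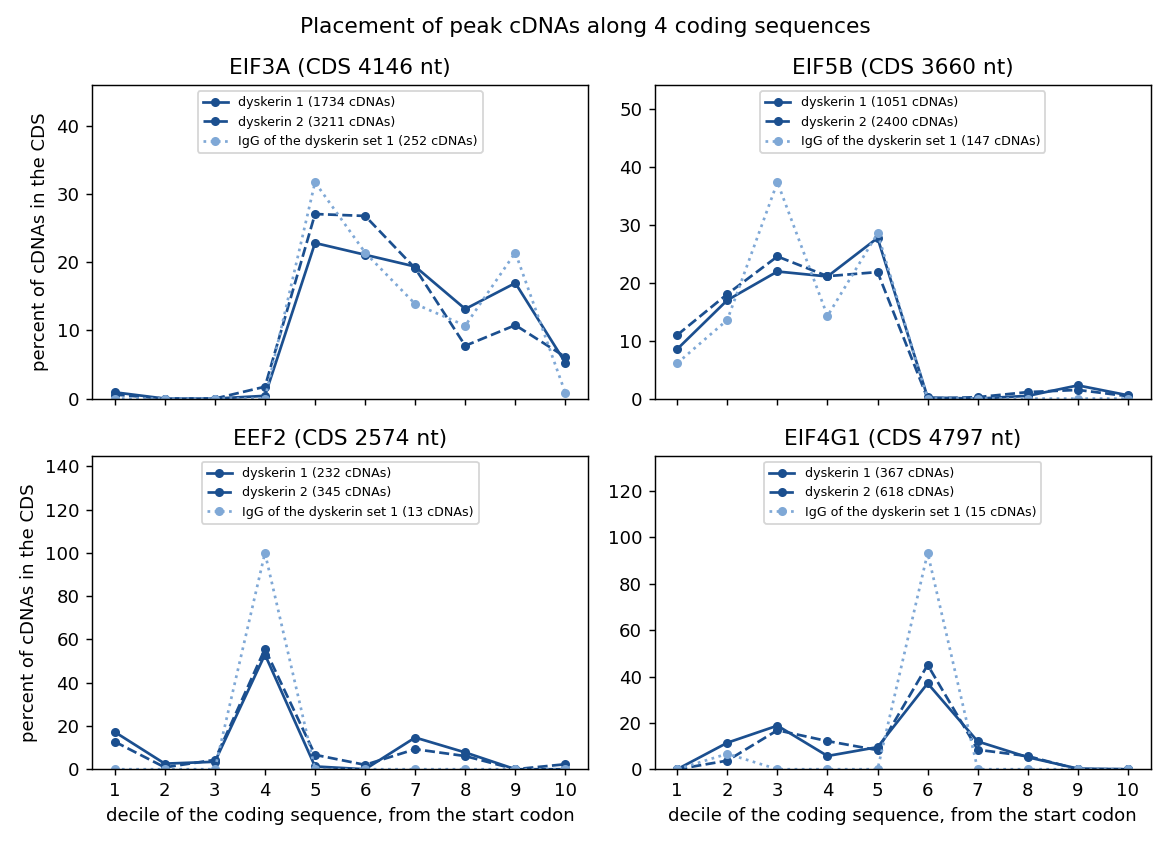
Percent of CDS cDNAs in each decile of the coding sequence, from the start codon, for EIF3A, EIF5B, EEF2 and EIF4G1, in both dyskerin libraries and the first IgG library of the dyskerin set. The lines of the 3 libraries peak in the same deciles of EEF2 and EIF4G1, with 53.0 and 55.6% of the EEF2 cDNAs of dyskerin in decile 4.

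The base at the crosslink site was also counted. U made up 26.2 and 27.7% of CDS cDNAs in the 70 genes with dyskerin and 26.1% in the first IgG library of the dyskerin set, where the base composition of the same coding sequences, weighted by cDNAs, would give 19.5, 19.8 and 19.2%. Over all protein-coding CDS, U made up 32.0 and 32.3% with dyskerin and 28.7% in that IgG library. In windows of 21 nt around the sites, A and G together made up 61.2 and 61.6% with dyskerin and 64.4% in that IgG library, against 57.6, 58.3 and 59.1% in the whole coding sequences.

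Sites merged into 569 and 618 clusters over these genes with dyskerin, 17 and 70 with GAR1, 115 and 4 with the IgG of the dyskerin set and 5 and 3 with the IgG of the GAR1 set. The clusters covered 14915 and 18339 nt with dyskerin, at 17.2 and 23.9 cDNAs per cluster, against 2230 nt and 7.31 cDNAs per cluster in the first IgG library of that set.

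Each antibody was then compared with its own IgG, gene by gene. Of the 70 genes, 41 reached 10 counts in 2 libraries and were tested among 6098 genes; a gene could pass through the dyskerin libraries alone. With dyskerin against its IgG, 0 of the 41 were called higher and 0 lower at an adjusted p under 0.05 (edgeR), where 0.0% of all genes were called higher and 0.0984% lower. Unadjusted, 13 of the 41 had a p under 0.05, all higher with dyskerin, where 33.8% of all genes did; DESeq2 called 0 of the 41. The median log2 fold change was 1.30 in the 41 genes and 2.14 in all genes tested, and 0.57 and 0.44 with genes at 0 in 1 group, 14 of the 41 in IgG, put at the bound that 3 counts allow. All 13 had no cDNA in either IgG library of the set. The lowest of their adjusted p-values was 0.0988, for EIF4G3, a relative of EIF4G1, which had 156 and 220 cDNAs with dyskerin against 0 and 0 with IgG, at least 5.43-fold higher, and is named here after its values were seen. With genes of at least 50 counts, 4 of 26 were called higher, namely EIF4G3, EIF2B5, EIF3M and EIF3L, where 23.4% of all genes were. Without the first or the second GAR1 library 2 of 41 were called, EIF4G3 and EIF2B5, where 10.3 and 8.5% of all genes were. These shares are no higher than those of all genes.

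With GAR1 against its IgG, 0 of the 41 were called in either direction, where 0.0% of all genes were called higher and 0.164% lower; 1 of the 41 had an unadjusted p under 0.05, on the lower side, where 6.49% of all genes did, and DESeq2 called 0 of the 41 and 32 genes higher and 5 lower in all. That gene was EIF2B3, with 0 cDNAs in GAR1 against 0 and 2 in its IgG, and so few cDNAs show no direction. The difference between the effects of both antibodies was called by edgeR for 0 of the 41, where 3.12% of all genes were called higher and 0.0164% lower, and by DESeq2 for 0. In edgeR 1 of the 41 was higher at an unadjusted p under 0.05, where 467 of 6098 genes were.

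Dyskerin was compared directly with GAR1 as well. Of the 41 genes, 40 were called higher with dyskerin and 0 lower, but 95.3% of all 6098 genes tested were called higher in the same comparison, so this share is that of the background. The median log2 fold change was 6.48 in the 41 genes and 6.71 in all genes tested, and 4.96 and 4.72 with genes at 0 put at their bound. The exception was EEF1D, which edgeR put at 3.05 ± 2.30 on the log2 scale (SE), with an adjusted p of 0.189. The count depended on the scaling. With TMM factors edgeR called 0 of the 41, where 0.0% of all genes were called. In that fit 7 of the 41 were higher at an unadjusted p under 0.05, where 1185 of 6098 genes were. Relative to the cDNAs of protein-coding genes 5 of the 41 were called, EIF3A, EIF4G1, EIF4G2, EEF2 and EIF4B, where 10.3% of all genes were called higher. DESeq2 called 3, EIF3A, EIF4G1 and EIF4G2, where 6.26% of all genes were. Each of these genes had 0 counted cDNAs in both GAR1 libraries. Among called sites, dyskerin was higher by at least 241-fold in EIF4G1 and 167-fold in EIF4G2 on the scale of total peak cDNAs. All but EIF4B carry a snoRNA, and their set-aside sites did hold GAR1 cDNAs. These were 4064 and 14454 in EIF3A, 674 and 2453 in EIF4G1, 249 and 897 in EIF4G2, and 158 and 557 in EEF2. Sites were called gene by gene, and whether this bears on the 0 counts elsewhere in these genes was not tested. Leaving out the first or the second dyskerin library left 1 library in that group, and only 15 of the 70 genes could be tested. Their median log2 fold change was then 6.52 and 6.51, against 6.408 and 6.355 in all genes tested. EEF1D and EIF3E were lower with dyskerin than with GAR1 once the cDNAs of protein-coding genes or TMM set the scale, with no call.

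Of 26 other genes linked to translation, 14 were tested. The 26 were listed under termination and recycling, poly(A) binding, other initiation helpers, selenocysteine, signalling kinases, and diphthamide and hypusine. In the comparison of dyskerin with its IgG, 0 of the 14 were called in either direction by edgeR or DESeq2. In edgeR 7 of the 14 were higher at an unadjusted p under 0.05, where 33.8% of all genes were. Against GAR1 all 14 were called higher at total scaling, where 95.3% of all genes were, so this share is near that of the background. With TMM factors 0 were called, where 0.0% of all genes were called higher. Relative to the cDNAs of protein-coding genes 0 of the 14 were called higher and 1 lower, where 626 of 6098 genes were called higher and 225 lower. PABPC1, the main cytoplasmic poly(A)-binding protein, led with 598 and 731 CPM with dyskerin, 0 and 28.3 with GAR1, 689 and 0 with the IgG of the dyskerin set, and 0 and 561 with the IgG of the GAR1 set.

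The sites set aside show a different picture in the same genes. A total of 9 of the 70 genes had sites within 100 nt of a snoRNA or scaRNA. Those sites held 6520 and 7932 CPM with dyskerin, 30620 and 33020 with GAR1, 6388 and 22240 with the IgG of the dyskerin set, and 28260 and 15330 with the IgG of the GAR1 set. Of all cDNAs in the 70 genes, counted and set aside together, they made up 53.5 and 50.8% with dyskerin, 99.5 and 99.3% with GAR1, 53.1 and 95.8% with the IgG of the dyskerin set, and 99.8 and 94.8% with the IgG of the GAR1 set. The deeper IgG library of each set thus lay close to its antibody. Beyond 100 nt, none of the 9 genes had a GAR1 cDNA at a called site.

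EIF4A1, the helicase that unwinds the 5′UTR, carries SNORA48, SNORA67 and SNORD10 in its introns. Its sites near them held 2393 and 2968 CPM with dyskerin, 9950 and 9341 with GAR1, 2143 and 5621 with the IgG of the dyskerin set, and 7814 and 5046 with the IgG of the GAR1 set, and it had 0 cDNAs elsewhere in all 8 libraries. EEF1B2, a subunit of the eEF1 exchange complex with SNORA41 and SNORD51, was likewise at 0 elsewhere. The body of SNORA19, at chr10:119060011-119060138 within EIF3A, gave 1318 and 1534 CPM with dyskerin, 6942 and 7313 with GAR1, and 1085 and 4399 with the IgG of the dyskerin set. In EIF3A the signal thus fell into a snoRNA part that both antibodies and both IgG sets had, and a coding part. In the coding part only the dyskerin set had called sites at this depth.

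The C/D snoRNA SNORD37 in EEF2, a class that H/ACA proteins do not assemble with, held 135 and 96.5 CPM with dyskerin, 270 and 282 with GAR1, 68.3 and 489 with the IgG of the dyskerin set, and 169 and 0 with the IgG of the GAR1 set. SCARNA27 lies at chr6:8086408-8086533 in EEF1E1 and was found only in the RefSeq annotation. Its removal took EEF1E1 down to 6 and 7 cDNAs with dyskerin and 0 and 0 with GAR1, against 295 and 732 with dyskerin and 651 and 3685 with GAR1 when GENCODE alone defined the snoRNAs.

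**Figure D4:**
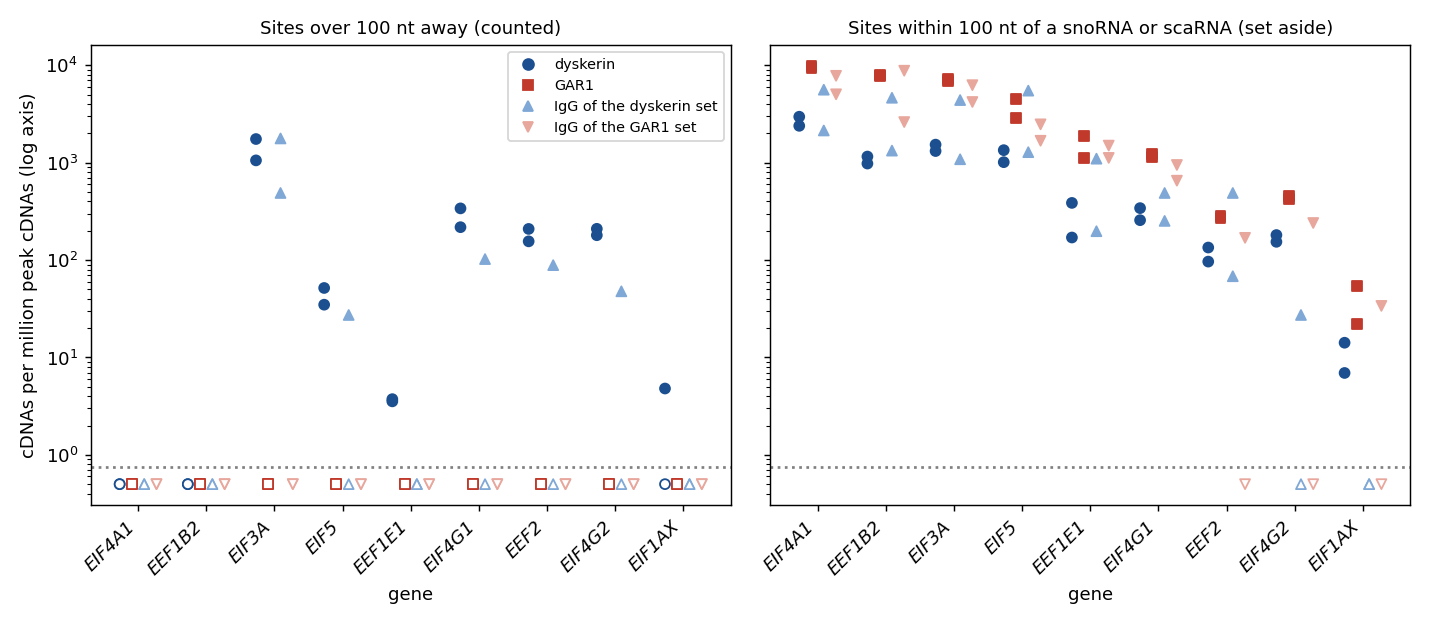
Level of the 9 genes with sites near a snoRNA or scaRNA, in cDNAs per 1000000 peak cDNAs on a log axis, for sites over 100 nt away (left) and for the sites set aside (right), 1 symbol per library and open symbols for 0. All GAR1 symbols are open on the left, and EIF4A1 reaches 9950 and 9341 with GAR1 on the right.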

How the data were processed

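Nuclear U2OS iCLIP libraries (4 groups, 2 libraries each) were used. The authors trimmed reads with Cutadapt, mapped them with STAR 2.7.0e to hg38, and called crosslink sites gene by gene with iCount; the deposited peak and cluster lists hold counts of cDNAs, which were used as given. Each site was assigned to a strand-matched GENCODE release 44 gene, CDS before 5′UTR, 3′UTR and intron. Sites within 100 nt of any of 992 GENCODE snoRNAs and scaRNAs or 452 added from RefSeq were left out; adding RefSeq entries by symbol, which brought in SCARNA27, was decided after the values of EEF1E1 were seen. Counts per gene were fitted with edgeR 4.0.16 (quasi-likelihood, library size the total peak cDNAs, at least 10 counts in at least 2 libraries, 4 residual degrees of freedom, two-sided, Benjamini-Hochberg adjustment over all genes tested) and checked on simulated data, where some unchanged genes were called beside the changed ones, so single calls are uncertain. The simulated counts were set to vary less than the fitted data, and unchanged genes had the same mean level in all groups. The check therefore does not measure how often calls are false in these data. Alternatives were TMM factors, protein-coding library sizes, DESeq2, other filters and distances, and each library left out.

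The genes and lists were chosen with earlier results of these data known. Named genes were the 12 of highest mean level, the 2 highest of each role, EEF2, and up to 10 called per comparison; positions on chromosome 8 were not printed, and 1 other position is not reported here. The labels number replicates without naming separate cultures, so p-values measure the spread between these libraries. A bound takes 3 counts over both libraries of a group at 0. It holds for called sites only, since cDNAs outside called sites are not in the peak lists. Depth was 8183 to 1976518 peak cDNAs per library, and 8 or 9 cDNAs stand behind the values of the 2 shallowest.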

Additional observations from a re-analysis of the deposited data

Results flagged for a closer look

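Signal outside the counted sites lay above both control libraries in 1 case. In the sites set aside within 100 nt of a snoRNA or scaRNA, the translation factor genes held 30620 and 33020 CPM with GAR1, against 28260 and 15330 with the IgG of the GAR1 set.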

How the results depend on the processing

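The IgG libraries limit every comparison with them, since the second of each set held 8183 and 10701 cDNAs. Of 41 genes, 40 were called higher with dyskerin than with GAR1. It was 0 with TMM factors, 5 relative to protein-coding cDNAs, 3 with DESeq2 (size factors from 19 genes), 25 of 26 with at least 50 counts (96.2% of all genes), 9 with each site counted once (31.7%), and 19 of 19 with sites of at least 3 cDNAs (94.2%); the counts of 25 and 19 had fewer genes tested, and the cause of the others was not tested. Against its IgG, dyskerin had 4 of 26 called with at least 50 counts, where 23.4% of all genes were. Leaving out 1 library at a time gave 0 to 41 calls for dyskerin against GAR1, 0 to 2 for dyskerin against IgG, 0 to 1 for GAR1 against IgG and 0 to 1 for the difference of the effects. Each of the last came from EIF2B3 without the first IgG library of the GAR1 set, which leaves 1 IgG library with 2 cDNAs of this gene, assumed to vary like the other groups, and where 2.48 and 2.71% of all genes were called in the same direction. Replicate numbers did not pair the libraries (correlations of deviations -0.0887 to 0.0869), and with the number as a replicate block 31 of 41 were called for dyskerin against GAR1, where 75.5% of all genes were, and 0 in each other comparison.

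The share of peak cDNAs was 0.566 to 0.768% with dyskerin, 0.0161 to 0.0248% with GAR1, 0.0978 to 0.564% with the IgG of the dyskerin set and 0.00576 to 0.0841% with the IgG of the GAR1 set when 1 library was left out. In GAR1 it was 0.5005% with sites outside snoRNA bodies only, 0.412% with each site counted once, 0.00657% with sites of at least 3 cDNAs and 0.169% with GENCODE alone, against 0.0204%. In the IgG of the GAR1 set it was 0.518, 0.177 and 0.176% for the first, second and last of these, against 0.0449%. The CDS share with dyskerin was 73.8% outside snoRNA bodies, 79.8% with each site counted once and 89.8% with sites of at least 3 cDNAs; outside snoRNA bodies it was 1.14% with GAR1 and 7.92% with the IgG of the GAR1 set. Without 1 library it was 81.1 to 86.4% with dyskerin, 25.3 to 31.9% with GAR1, 50 to 90.6% with the IgG of the dyskerin set and 29.4 to 77.8% with the IgG of the GAR1 set. Genes with a site in both libraries were 13 with GAR1, 7 with the IgG of the dyskerin set and 5 with the IgG of the GAR1 set outside snoRNA bodies, and 1, 0 and 0 with sites of at least 3 cDNAs.

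Log2 fold changes that turned, all without a call: EEF1D was 3.08 (TMM) and 0.87 (protein-coding scaling), EIF2AK1 0.34 (TMM) and EIF4E 0.28 (TMM) in GAR1 against IgG; EEF1D was -1.51 and -1.94 and EIF3E -0.0499 and -0.18 (TMM, then protein-coding scaling) in dyskerin against GAR1; EIF3A was -0.63 (protein-coding scaling) in dyskerin against IgG; in the difference of the effects EEF1D was -2.49 and -0.53, EIF3A -0.63 (protein-coding scaling) and EIF3B -1.37 (TMM).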

Other observations

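The 150 annotated pseudogenes of 28 of these genes held 19.5 and 11.7 CPM with dyskerin (33 and 22 cDNAs) and 0 and 0 with the IgG of the dyskerin set, where 3 counts over both libraries would be 19.4 CPM, so a difference was not detectable at this depth.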
